A study of Mus musculus with 6 samples.

Results

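The neurotrophin and GDNF family genes described here were Bdnf, Ntf3, Ntrk2, Ntrk3, Ngfr, Ret, Gfra1 and Gfra2, 8 of the 32531 gene entries counted. They were chosen by name, as ligands and receptors of the 2 families, with no threshold on a measured value. RNA came from the dissected midbrain of adult mice of the untreated transgenic line Lhx5-TRAP DT154, in which the ribosomal protein Rpl10a fused to EGFP is driven by Lhx5 sequences. Lhx5 encodes a transcription factor of the LIM homeodomain class. Translating ribosome affinity purification (TRAP) pulls down ribosomes carrying the tag with anti-EGFP antibodies, so that the RNA recovered (IP) is enriched for that of tagged cells. The study held 3 IP libraries and 3 libraries titled Input, all from this 1 line and called Input here. Their sample type label reads unbound instead, so they may be whole homogenate or what the beads left behind. Neither sex, exact age nor whether each replicate was its own animal is given, so p-values measure the spread between these libraries, which may be technical.

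Neurotrophins are small secreted proteins that keep neurons alive and tune synapses. Bdnf makes brain-derived neurotrophic factor, which acts on the receptor tyrosine kinase TrkB (Ntrk2), and Ntf3 makes neurotrophin-3, which acts mainly on TrkC (Ntrk3), while the p75 receptor (Ngfr) binds all neurotrophins and their uncleaved precursors. Ligands of the GDNF family bind a lipid-anchored co-receptor of the GFRα family (Gfra1 for GDNF, Gfra2 for neurturin), and the complex engages the receptor tyrosine kinase Ret, a pathway well known for its trophic action on midbrain dopamine neurons. TrkB and TrkC are also made as truncated forms without the kinase, and truncated TrkB is abundant in astrocytes. Counts per gene do not separate these forms.

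Each library held between 38058239 and 45841499 counts in genes, and levels are given as CPM, the count scaled by the library's TMM-adjusted total. Lhx5 stood at 50.7 ± 4.81 CPM in IP and 3.31 ± 0.963 in the Input libraries (SD over 3), while Rpl10a stood at 7.03 ± 0.0220 and 7.80 ± 1.53. Reads ambiguous between genes made up 1.59% to 1.68% of all entries, summary lines included, in IP and 8.03% to 10.9% in Input. Entries not aligned uniquely, which enter no gene's count, made up 43.8% to 44.5% in IP and 31.8% to 33% in Input. Their part in the level of Rpl10a was not tested. IP replicate 2 held a summed 2496 CPM of 10 Purkinje cell markers against 918 and 1003 in the other IP libraries. Input replicate 3 held 1467 CPM of 8 striatal markers against 386 and 203, and 223 CPM of 9 dopamine neuron markers against 495 and 434 in Input replicates 1 and 2. That library also held 1375 CPM of 6 choroid plexus markers against 386 and 34.6. Its 5 serotonin neuron markers summed to 2.42 CPM against 49.5 and 38.9.

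Of the 8 genes, 1 was higher in IP (Bdnf), 2 were lower (Ntrk2 and Ngfr) and 5 did not pass, at an adjusted p under 0.05. All 8 passed the filter on low counts. Over all 17197 genes tested, 26.0% were called higher and 27.9% lower, 53.9% in either direction, so that 3 calls of 8 is no more than the background. The median log2 fold change of the 8 was -0.18, against -0.01 for all tested genes. Calls were 48.2% upward here and 38.1% upward when scaled by the upper quartile, which moved the median of all genes to -0.17. Ntrk2 and Ngfr were also the 2 of 8 with every IP library below every Input library, and 0 of 8 had every IP library above. Over all tested genes these shares were 32.8% and 30.7%, 63.5% together.

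The sequences upstream of the 3 called genes are shown because Bdnf is transcribed from several starts that its gene count adds together. RefSeq (GRCm38.p6) gave upstream windows for 5 of the 8 genes, with 7 starts for Bdnf, 2 for Ntf3 and 1 each for Ntrk2, Ngfr and Gfra1. The 250 bases before each start were searched on both strands for TGACG, the core of the site bound by CREB, a factor known to drive Bdnf in active neurons, and for TAATTA, a core recognised by LIM homeodomain proteins. The first was found in 1 of the 7 Bdnf windows, beginning 35 bases before start 3, and in none of the other 5 windows, while 17.8% of all 32851 windows hold it. TAATTA was in none of the 12 windows and is in 4.84% of all. Capitals mark the TGACG motif, here read as CGTCA from the other strand.
Bdnf, start 3, chr2:109692186-109692435, plus strand: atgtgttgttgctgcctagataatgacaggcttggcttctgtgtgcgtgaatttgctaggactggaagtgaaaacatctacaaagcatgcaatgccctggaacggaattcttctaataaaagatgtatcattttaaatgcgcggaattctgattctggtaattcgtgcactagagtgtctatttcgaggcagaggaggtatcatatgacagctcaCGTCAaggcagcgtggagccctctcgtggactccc
Ntrk2, chr13:58806319-58806568, plus strand: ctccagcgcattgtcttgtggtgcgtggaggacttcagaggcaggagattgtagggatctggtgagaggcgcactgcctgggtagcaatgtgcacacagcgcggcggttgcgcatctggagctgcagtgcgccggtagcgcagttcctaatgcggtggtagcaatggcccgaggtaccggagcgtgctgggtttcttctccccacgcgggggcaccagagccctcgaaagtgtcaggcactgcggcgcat
Ngfr, chr11:95587699-95587948, minus strand: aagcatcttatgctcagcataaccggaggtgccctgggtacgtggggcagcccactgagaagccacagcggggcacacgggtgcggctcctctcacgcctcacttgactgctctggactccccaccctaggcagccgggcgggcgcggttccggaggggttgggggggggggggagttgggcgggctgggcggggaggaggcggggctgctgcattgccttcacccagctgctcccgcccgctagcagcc
The Ntrk2 and Ngfr windows hold 19 and 16 CG pairs and have a GC content of 62.8% and 70.4%. The 7 Bdnf windows hold 1 to 13 CG pairs at a GC content of 39.2% to 59.6%, with 9 pairs and 45.6% in the one shown. These matches describe the letters only, and the counts carry no information on which start was used.

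Bdnf was the one gene of the 8 that was higher in IP. Its locus spans 109674700 to 109727007 of chromosome 2 (ENSMUSG00000048482.14, GENCODE M21, GRCm38), protein coding with 11 annotated transcripts. IP replicates 1, 2 and 3 had 50.8, 58.7 and 30.5 CPM of Bdnf, and Input replicates 1, 2 and 3 had 21.5, 31.8 and 13.2. The lowest IP library lay just under the highest Input library, so the groups overlapped, while within each lane the IP library was the higher one. Same-numbered libraries carry the same sequencing lane in their labels, and the log2 ratios within the 3 lanes were 1.24, 0.89 and 1.21. In the fit of all genes Bdnf was 2.10-fold higher, a log2 fold change of 1.07 (SE 0.33, 95% interval 0.32 to 1.83, edgeR quasi-likelihood, Benjamini-Hochberg adjusted p = 0.0238). A rise beyond 2-fold, which 2.25% of all tested genes showed, was not shown for Bdnf (adjusted p = 0.649).

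The call for Bdnf was lost in some fits that left out libraries. Such fits test fewer of them and, like the fit above, did not pair libraries by lane. The log2 fold change was 1.02 without IP replicate 1 (adjusted p = 0.0603), 0.84 without IP replicate 2 (adjusted p = 0.116), 1.05 without Input replicate 1 (adjusted p = 0.0670) and 0.79 without Input replicate 3 (adjusted p = 0.0663), all in edgeR's quasi-likelihood test and none of them called. Without both IP replicate 2 and Input replicate 3 it was 0.57 (adjusted p = 0.168). These were the highest IP and the lowest Input library of Bdnf, at 58.7 and 13.2 CPM. Leaving out both had to lower the difference, so this fit cannot show how stable it is. Bdnf was called by the same test without IP replicate 3 (1.31, adjusted p = 0.0115) and without Input replicate 2 (1.43, adjusted p = 0.0101). With all 6 libraries and the replicate number as a block, the value was 1.11 (SE 0.12, adjusted p = 0.000388 by edgeR's quasi-likelihood test). IP replicate 2 had the most Bdnf, the most Purkinje cell RNA and the most RNA of 8 cortical and hippocampal markers, at 561 CPM against 427 and 307 in IP replicates 1 and 3. Cortical and hippocampal markers summed to 1035, 1372 and 1103 CPM in Input replicates 1, 2 and 3, and 6 of the 8 fell in IP. Pan-neuronal markers, by contrast, were higher in IP with Bdnf: 9 of 10 rose, with a median log2 fold change of 0.83. They summed to 20945 to 26315 CPM in IP and 9678 to 13400 in Input. Of the 10 Purkinje cell markers 4 were higher, 0 lower and 6 did not pass, with a median log2 fold change of 1.08. Their sums were 918 to 2496 CPM in IP and 699 to 853 in Input. The part of these markers in the Bdnf result was not tested. An antisense gene shares 896 exonic bases with Bdnf, and without strand its reads cannot be told apart.

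**Figure D1:**
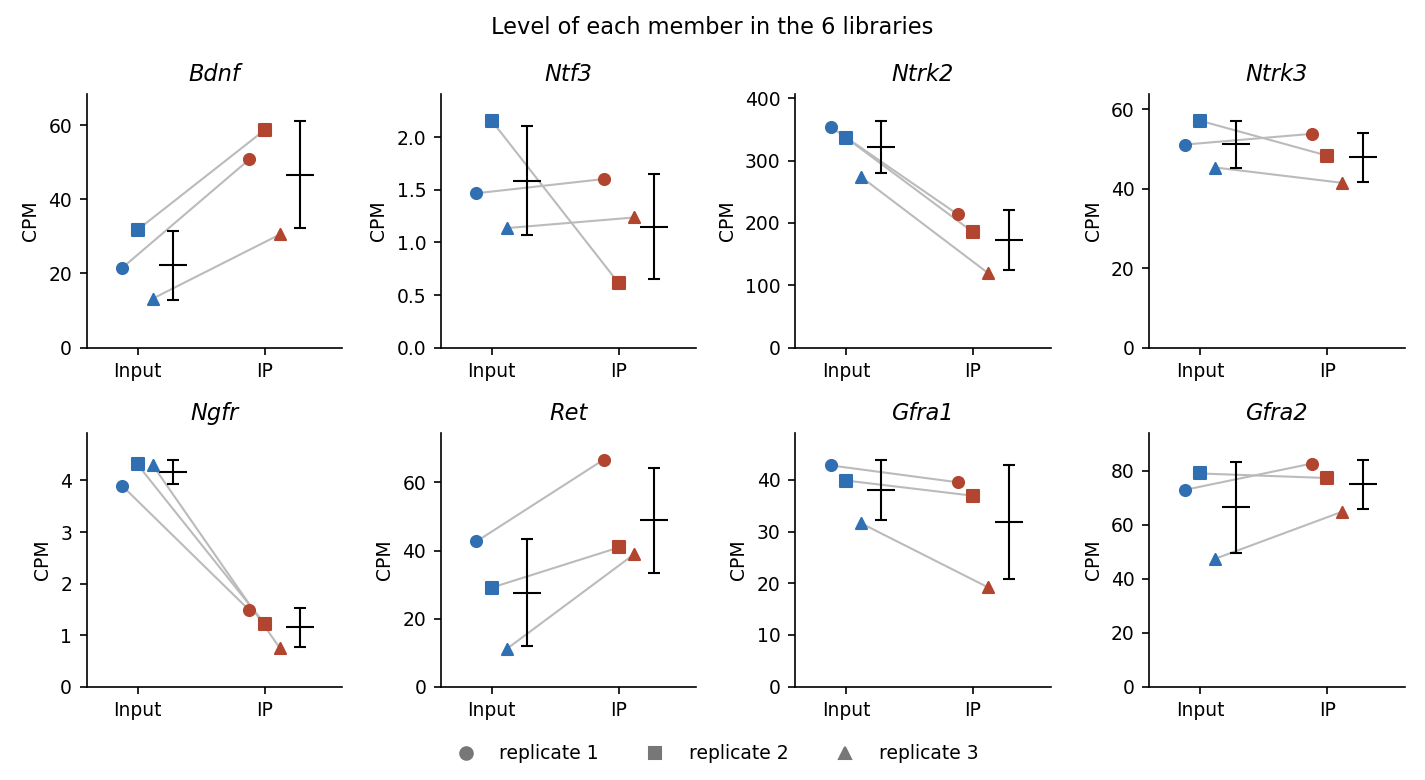
Level of each of the 8 genes in the 6 libraries, in CPM on a linear axis from 0, with Input in blue and IP in red. Symbols mark the replicate, grey lines join libraries of the same lane, and black bars give the mean and SD of 3 libraries. Bdnf is higher in IP within all 3 lanes, and Ntrk2 and Ngfr are the 2 genes whose groups do not overlap.

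Ntf3, the other ligand, was scarce in both groups. IP replicates 1, 2 and 3 had 67, 25 and 53 counts of Ntf3, or 1.60, 0.610 and 1.24 CPM, and the Input replicates had 61, 94 and 46 counts, or 1.47, 2.15 and 1.14 CPM. The groups overlapped, and the lowest IP and the highest Input library were both of replicate number 2. The log2 fold change was -0.46 (SE 0.46, 95% interval -1.52 to 0.60, adjusted p = 0.426), an interval that spans both a fall and a smaller rise. Ntf3 lies on chromosome 6 from 126101412 to 126166910.

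The receptor genes for neurotrophins were lower in IP or did not pass. Ntrk2, the TrkB gene on chromosome 13 from 58806569 to 59133970, had the most reads of the 8 genes, with no account taken of its length. IP replicates 1, 2 and 3 had 214, 185 and 119 CPM of Ntrk2, and the Input replicates had 354, 337 and 274. Every IP library lay below every Input library. Ntrk2 was 1.86-fold lower, with a log2 fold change of -0.90 (SE 0.21, 95% interval -1.37 to -0.42, adjusted p = 0.00663), and it was called lower in all 16 alternative analyses at log2 fold changes from -1.10 to -0.68. In bulk RNA fewer cells of a type and less of the RNA per cell cannot be told apart.

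Astrocyte markers fell further than Ntrk2. Of 10 astrocyte markers 9 fell, with a median log2 fold change of -3.11, and their summed level ran from 774 to 807 CPM in IP and from 1654 to 2250 in Input. Most of the sum in IP was Aldoc, which did not pass, and none of the 10 was at 0 in IP. Oligodendrocyte markers, 10 of 10 lower, summed to 337 to 499 CPM in IP and 4371 to 5201 in Input. The part of glial RNA in the Ntrk2 difference was not tested.

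Ntrk3, the TrkC gene on chromosome 7 from 78175959 to 78738012, differed little between the groups. Ntrk3 stood at 53.8, 48.3 and 41.5 CPM in IP replicates 1, 2 and 3, and the Input replicates had 51.1, 57.1 and 45.3. The groups overlapped, and the log2 fold change was -0.10 (adjusted p = 0.583, SE 0.14). Its 95% interval, from -0.42 to 0.22, was the narrowest of the 8 genes and leaves room for a fall or a rise of that size, and without IP replicate 3 the value was 0.01. Counts of Ntrk2 per exonic kilobase were 5.57 ± 0.930 times those of Ntrk3 in IP and 9.84 ± 0.874 times in the Input libraries (SD over 3). The exact two-sided permutation test of this ratio gave p = 0.1, the smallest that 3 against 3 allows, and 0.12 adjusted over the 6 ratios computed, so the design could not reach 0.05.

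Ngfr, the p75 gene on chromosome 11 from 95568818 to 95587735, had the largest difference of the 8 genes at a low level. IP replicates 1, 2 and 3 had 62, 50 and 32 counts of Ngfr, or 1.48, 1.22 and 0.746 CPM, and the Input replicates had 162, 188 and 174 counts, or 3.89, 4.31 and 4.29 CPM. The 3 Input libraries were close together and all IP libraries lay below them. Ngfr was 3.62-fold lower, with a log2 fold change of -1.86 (SE 0.33, 95% interval -2.60 to -1.11, adjusted p = 0.00176), and a fall beyond 2-fold was shown (adjusted p = 0.0281), as for 12.9% of all tested genes. It was called lower in all 16 alternatives, from -2.07 to -1.61. Mural and fibroblast markers (8 of 9 lower) summed to 15.9 to 19.3 CPM in IP and 173 to 273 in Input, and oligodendrocyte precursor markers (5 of 5 lower) to 21.7 to 28.3 and 224 to 256 CPM. Their part in the Ngfr difference was not tested.

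**Figure D2:**
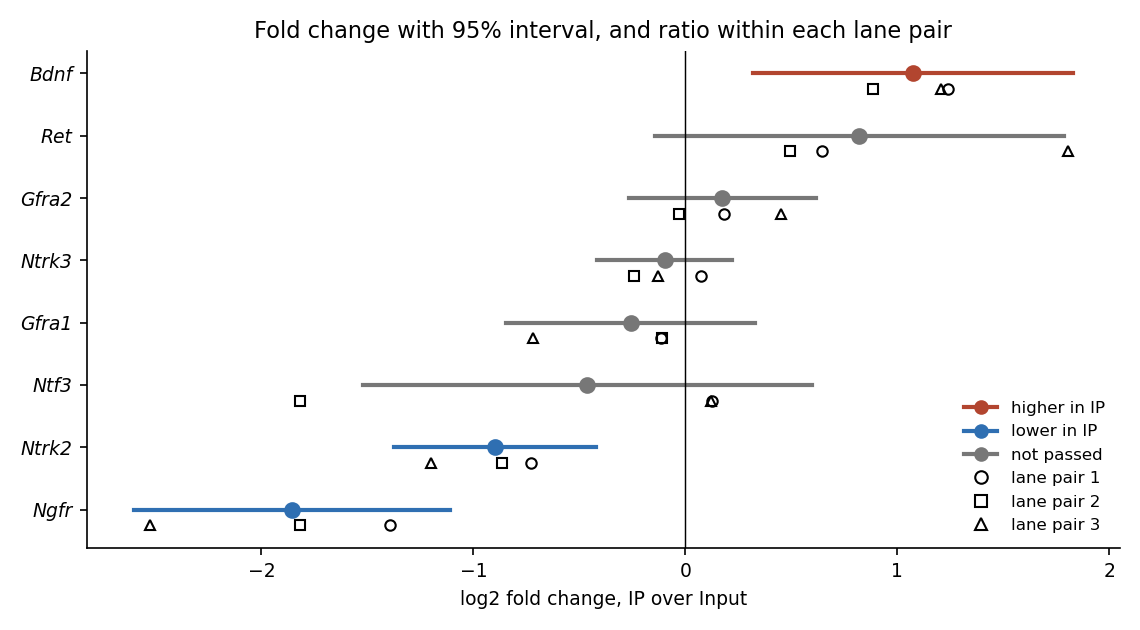
Log2 fold change of IP over Input for each of the 8 genes. Filled points and bars give the fitted value and its 95% interval, in red where called higher, blue where called lower and grey where not passed, and open symbols give the log2 ratio within each lane. Bdnf, Ntrk2 and Ngfr have intervals clear of 0, and the 3 lane ratios of Ret run from 0.49 to 1.81.

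Ret, the signalling receptor of the GDNF family, was higher in IP within each lane but did not pass over the groups. It lies on chromosome 6 from 118151745 to 118197718. IP replicates 1, 2 and 3 had 66.7, 40.9 and 38.9 CPM of Ret, and the Input replicates had 42.7, 29.1 and 11.1. The groups overlapped, since Input replicate 1 lay above IP replicates 2 and 3. The log2 fold change was 0.82 (SE 0.42, 95% interval -0.14 to 1.79, adjusted p = 0.132). With the replicate number, which marks the shared lane, as a block it was 0.96 (SE 0.27, adjusted p = 0.0267 by edgeR's quasi-likelihood test), which is a call, and the count of genes called higher among the 8 was then 2.

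The Ret difference depended on single libraries of both groups. Leaving out IP replicate 1, the highest in Ret, gave a log2 fold change of 0.54 (adjusted p = 0.359 by edgeR's quasi-likelihood test). Without Input replicate 1 the log2 fold change was 1.28 and was called (adjusted p = 0.0398), and without Input replicate 3 it was 0.42 (adjusted p = 0.242). Input replicate 3, lowest in Ret, was also lowest in dopamine neuron markers, where Slc6a3, which encodes the dopamine transporter, stood at 4.99 CPM and at 62.4 and 52.3 in the other Input libraries, and Input replicate 1 was highest in both. In IP the summed dopamine neuron markers ran from 96.6 to 119 CPM, with Slc6a3 at 6.67, 4.96 and 2.87, and 6 of the 8 tested fell. No marker of this list was at 0 in all IP libraries. Dopamine neurons are known to make Ret, and their part in the Input values was not tested, nor was that of the pan-neuronal markers, whose median log2 fold change of 0.83 was close to the 0.82 of Ret.

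Gfra1 and Gfra2, the co-receptor genes, did not pass. Gfra1 stood at 39.6, 36.9 and 19.2 CPM in IP replicates 1, 2 and 3, and the Input replicates had 42.8, 39.9 and 31.6. The groups overlapped and IP replicate 3 was the low library, with a log2 fold change of -0.26 (SE 0.26, 95% interval -0.84 to 0.33, adjusted p = 0.426). Gfra1 lies on chromosome 19 from 58235604 to 58455909, and an antisense gene shares 416 of its exonic bases. Without IP replicate 3 its log2 fold change was 0.02.

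Gfra2, on chromosome 14 from 70890120 to 70979838, had 82.7, 77.4 and 64.9 CPM in IP replicates 1, 2 and 3 and 73.0, 79.0 and 47.4 in the Input replicates. The groups overlapped, and replicate 3 was the lowest library of each. The log2 fold change was 0.17 (SE 0.19, 95% interval -0.27 to 0.61, adjusted p = 0.473). Per exonic kilobase, Ret stood at 1.30 ± 0.376 times Gfra1 in IP and 0.561 ± 0.262 times in Input, and Gfra1 at 0.270 ± 0.0679 times Gfra2 in IP and 0.379 ± 0.0523 in Input, with SD over 3. Both ratios gave the smallest p of the exact two-sided permutation test, 0.1, and 0.12 adjusted over the 6 ratios. Ret stood at 0.337 ± 0.0754 times Gfra2 in IP and 0.207 ± 0.0925 in Input, where the groups overlapped (exact two-sided permutation p = 0.2, adjusted 0.2). Without Input replicate 3 the log2 fold change of Gfra2 was -0.04.

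**Figure D3:**
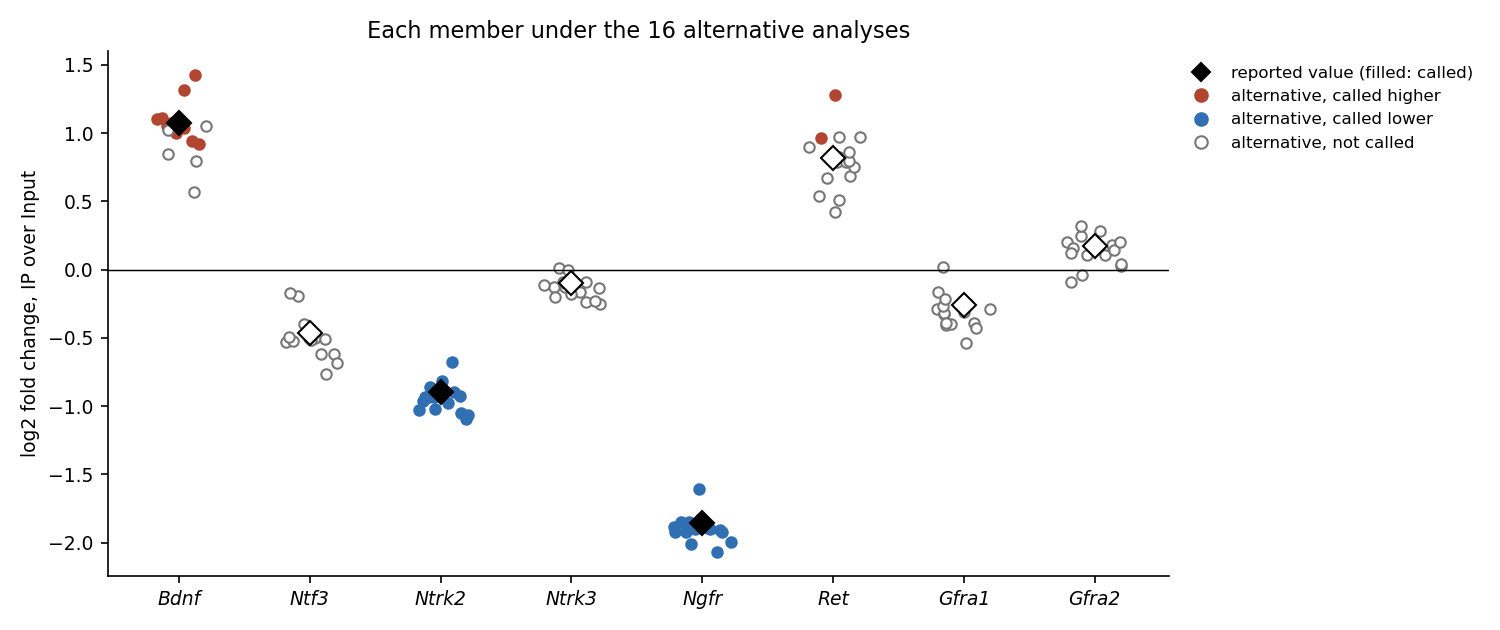
Log2 fold change of IP over Input for each of the 8 genes as reported (diamond, filled where called) and under 16 alternative analyses (circles, red where called higher, blue where called lower, open where not called). Ntrk2 and Ngfr are called lower throughout, Bdnf is called in 11 of 16, and Ret is called in 2.

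To compare levels between genes, CPM were divided by length, first by the union of annotated exons. In IP, Gfra2 was highest at 21.2 ± 2.58 CPM per kb, above all other genes in each library. Ntrk2 (8.95 ± 2.51), Bdnf (7.50 ± 2.34), Ret (7.22 ± 2.29) and Gfra1 (5.83 ± 2.02) followed, and each of these neighbours overlapped the next. Ntrk3 (1.59 ± 0.205), Ntf3 (0.671 ± 0.292) and Ngfr (0.334 ± 0.108) were lower, and the last pair overlapped (SD, n = 3).

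In Input the order per exonic kilobase was Gfra2 (18.8 ± 4.74), Ntrk2 (16.7 ± 2.19), Gfra1 (6.96 ± 1.06), Ret (4.09 ± 2.34), Bdnf (3.57 ± 1.49), Ntrk3 (1.70 ± 0.195), Ngfr (1.21 ± 0.0684) and Ntf3 (0.925 ± 0.303). Gfra2 overlapped Ntrk2, Gfra1 overlapped Ret, Ret overlapped Bdnf, and Ngfr overlapped Ntf3. The order depends on the length used. With the median coding transcript as the length, Ntrk2 came first in both groups, at 56.6 ± 15.9 CPM per kb in IP and 105 ± 13.9 in Input, and Ntrk3 followed Gfra2, at 14.2 ± 1.83 and 15.2 ± 1.74. In IP the range of Gfra2 on this scale (50.7 ± 6.17) overlapped that of Ntrk2, and in Input it did not (44.9 ± 11.3). Ntf3 and Ngfr were the lowest pair in both groups on both scales. Bdnf stood at 0.838 ± 0.129 times Ntrk2 per exonic kilobase in IP and 0.210 ± 0.0737 times in Input (exact two-sided permutation p = 0.1, the smallest possible, 0.12 adjusted over the 6 ratios). With the median coding transcript as the length, Bdnf stood at 11.9 ± 3.72 CPM per kb in IP, against 56.6 for Ntrk2. In Input these were 5.68 ± 2.38 and 105. The size of this and the other ratios per exonic kilobase thus depends on the length used.

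Across the 6 libraries the profiles of the 8 genes were alike to different degrees. Log CPM of Ntrk2 and Ngfr correlated at a Pearson r of 0.95, Ret and Gfra2 at 0.878, Ntrk3 and Gfra1 at 0.858, Bdnf and Gfra2 at 0.825, Ntrk2 and Gfra1 at 0.809, Bdnf and Ret at 0.789 and Ntrk2 and Ntrk3 at 0.703, while Bdnf and Ngfr stood at -0.634. These describe 6 libraries that share 2 groups and 3 lanes. Among 14363 other named genes tested, the profile most like Bdnf was that of Crtac1 (r = 0.991), which had a log2 fold change of 1.07 (SE 0.38). The closest to Ntrk2 was Dnajc25 (r = 0.998), to Ngfr Mlip (r = 0.999), to Ret H2-Bl (r = 0.996), to Gfra1 Slc1a1 (r = 0.997), to Gfra2 Lingo1 (r = 0.994), to Ntrk3 Bmp3 (r = 0.989) and to Ntf3 Fam71d (r = 0.983). The search covered many genes over few libraries, and close matches were common for the 3 called genes. An r over 0.95 was held by 989 genes with Ngfr, 313 with Ntrk2 and 152 with Bdnf. For the genes that did not pass, the counts were 76 with Ret, 66 with Gfra1, 33 with Gfra2, 24 with Ntrk3 and 7 with Ntf3.

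Other ligands and receptors of the neurotrophin family mostly did not pass. Of 10 listed, 9 were tested, 0 were higher, 1 was lower and 8 did not pass (edgeR's quasi-likelihood test; 2 were lower without IP replicate 2 and 3 with the replicate block), with a median log2 fold change of -0.17. This is 0% higher and 11.1% lower, beside 26.0% and 27.9% of all tested genes. Ntf5, which makes neurotrophin-4, was too low to test, and 0 counts in the 3 IP libraries allow at most 0.0733 CPM in any of them.

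Sortilin-family receptors, which bind neurotrophin precursors or carry neurotrophins and Trk receptors inside cells, were abundant and did not pass. Sort1 (sortilin) stood at -0.17 (SE 0.22), Sorl1 at 0.34 (SE 0.29), Sorcs1 at -0.52 (SE 0.22), Sorcs2 at -0.61 (SE 0.27) and Sorcs3 at 0.22 (SE 0.24) on the log2 scale. Sorcs1 was called lower in 7 of 16 alternatives, among them DESeq2 (-0.55), the replicate block (-0.56), upper-quartile scaling (-0.67) and the fit without IP replicate 2 (-0.76). Sorcs2 was called lower in 3, by DESeq2 (-0.64), the block (-0.68) and upper-quartile scaling (-0.76), and Sorcs3 was called higher without IP replicate 3 (0.47). Lingo1, a partner of p75 in the myelin inhibitor receptor, stood at 0.11 (SE 0.17), and Nradd, a p75-like death domain protein gene, at 0.24 (SE 0.66).

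Of 10 other GDNF family ligands and receptors, 6 were tested, 3 were higher, 0 were lower and 3 did not pass by edgeR's quasi-likelihood test, with a median log2 fold change of 0.84. Over all tested genes 26.0% were higher and 27.9% lower, against 50% and 0% of these few. Gfra4, the co-receptor gene for persephin, had 59.8, 50.7 and 79.9 CPM in IP replicates 1, 2 and 3 and 28.3, 27.3 and 26.6 in the Input replicates. All IP libraries were higher, by 1.21 on the log2 scale (SE 0.17, adjusted p = 0.000596), and Gfra4 was called in all 16 alternatives. A microRNA gene on the same strand shares 80 of its exonic bases.

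Nrtn, the neurturin gene, was called at 1.34 (SE 0.49, adjusted p = 0.0460), with 0.684 to 1.10 CPM in IP and 0.247 to 0.436 in Input, but in 3 of 15 alternatives only. Sdc3, the gene of syndecan-3, a proteoglycan that binds GDNF, was called at 0.57 (SE 0.21, adjusted p = 0.0459) and in 6 of 16 alternatives. Without IP replicate 1, Input replicate 2 or Input replicate 3 only Gfra4 of this list was called. The same held when scaled by RLE, the upper quartile or library totals alone, with a filter of 1 CPM in 3 libraries, and after thinning. Over the alternatives 1 to 3 genes of this list were called higher. Gdnf itself had 0.220 to 0.490 CPM in IP and 0 to 1.88 in Input, highest in Input replicate 3, at a log2 fold change of -1.22 (SE 1.16). Without that library it was 0.33, and by limma-voom on all libraries 0.62, so Gdnf has no settled direction here. Artn, the artemin gene, stood at 1.11 (SE 0.46, adjusted p = 0.0714) and Ncam1, an adhesion molecule that also serves as a GDNF receptor, at -0.03 (SE 0.25). Pspn, Gfra3, Gfral and Gdf15 had too few counts to test.

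Genes that cleave or release neurotrophin precursors split. Of 14 listed 11 were tested, 2 higher and 2 lower, and 7 did not reach the threshold (median log2 fold change 0.19). Each direction held 18.2%, below the 26.0% higher and 27.9% lower of all tested genes. Serpini1, the gene of neuroserpin, an inhibitor of tissue plasminogen activator, rose by 1.42 (SE 0.42) and Plat, the gene of that protease, fell by 1.37 (SE 0.25). Their adjusted p were 0.0202 and 0.00206 by edgeR's quasi-likelihood test. The proprotein convertase genes Pcsk5 and Pcsk6 stood at 1.03 (SE 0.26) and -0.90 (SE 0.33). Neither Serpini1 (1.24) nor Pcsk5 (0.80) was called without IP replicate 2, and without IP replicate 1 Serpini1 stood at 1.20 and was not called. Leaving out IP replicate 1 (-0.89) or 3 (-0.63), or Input replicate 1 (-0.82) or 2 (-0.76), ended the call for Pcsk6.

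Among adaptors that couple these receptors to their pathways, 15 of 33 tested were higher, 5 were lower and 13 did not pass, with a median log2 fold change of 0.32. That is 45.5% higher and 15.2% lower, against 26.0% and 27.9% of all tested genes. Maged1, whose protein binds p75, rose by 0.67 (SE 0.11), Arhgdia, whose protein also acts with p75, by 0.60 (SE 0.13), and Pik3ca, a catalytic subunit of phosphoinositide 3-kinase, by 0.46 (SE 0.11). Pik3r1, a regulatory subunit of the same kinase, fell by 0.55 (SE 0.13). Gab1, a docking protein, fell by 2.78 (SE 0.15), standing at 13.8 ± 1.74 CPM in IP and 95.1 ± 12.6 in Input (SD over 3). Sos2, a Ras exchange factor, stood at -0.30 (SE 0.11, adjusted p = 0.0436) and was called in 9 of 16 alternatives. Without Input replicate 2 or Input replicate 3 the count of lower adaptors was 3, and over the alternatives 10 to 15 were higher.

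In the kinase cascade from Ras to CREB, 6 of 25 genes were higher and 7 lower (median 0.04), close to the background shares of 26.0% and 27.9%. Araf, a Raf kinase, rose by 1.31 (SE 0.12), Hras by 1.25 (SE 0.20) and Akt1 by 1.11 (SE 0.19). Nras fell by 1.89 (SE 0.14), Camk4, a calcium-dependent kinase of CREB, by 1.72 (SE 0.27) and Braf by 0.54 (SE 0.11). Paralogues thus differed in sign, with Araf up and Braf down, and Hras up and Nras down, in all 16 alternatives. Exons of Araf, Braf, Camk4 and Gab1 overlap genes of the other strand by 9, 146, 72 and 266 bases, and reads there cannot be told apart without strand. Of other genes named here, Sort1, Sorcs1, Sorl1, Sdc3, Ncam1, Lhx5 and Rpl10a also overlap genes of the other strand. Fgfr2 and Pcsk6 share 314 and 156 exonic bases with genes of the same strand.

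Genes induced early by neurotrophins or that dampen their receptors moved as follows, 8 of 14 lower and 1 higher (median -0.82, 5 short of the threshold). As shares these were 57.1% and 7.14%, beside 27.9% lower and 26.0% higher over all tested genes. Etv5, an ETS factor gene known to respond to GDNF, fell by 1.86 (SE 0.16), Arc, a synaptic immediate early gene, by 1.19 (SE 0.18) and Homer1, a postsynaptic scaffold gene, by 0.83 (SE 0.27). Fos rose by 0.78 (SE 0.15). Leaving out Input replicate 3 (-0.42) or IP replicate 1 (-0.80), 2 (-0.93) or 3 (-0.76) ended the call for Homer1, as did the replicate block (-0.74). Lower genes numbered 5 when IP replicate 2 or Input replicate 3 was left out, and the count of higher genes was 2 without IP replicate 3 and with the replicate block.

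As a point of comparison, 14 receptor tyrosine kinases of other trophic ligands had a median log2 fold change of -1.62, with 1 higher, 9 lower and 4 short of the threshold (2 higher without IP replicate 3 and 3 with the replicate block). The shares were 7.14% higher and 64.3% lower, where all tested genes had 26.0% and 27.9%. Some of the 14 are also among the glial or vascular markers used here. In the marker lists that hold receptor kinases, 87.5% to 100% of the tested genes were lower. The part of these cell types in the median of the 14 was not tested. Fgfr2, a fibroblast growth factor receptor gene, fell by 2.43 (SE 0.20), Igf1r by 0.82 (SE 0.16) and Insr, the insulin receptor gene, by 0.72 (SE 0.16), while Alk rose by 1.16 (SE 0.24). For the receptor kinases among the 8 genes the fitted values were -0.90 for Ntrk2, -0.10 for Ntrk3 and 0.82 for Ret. The difference between these groups of receptors was not tested.

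**Figure D4:**
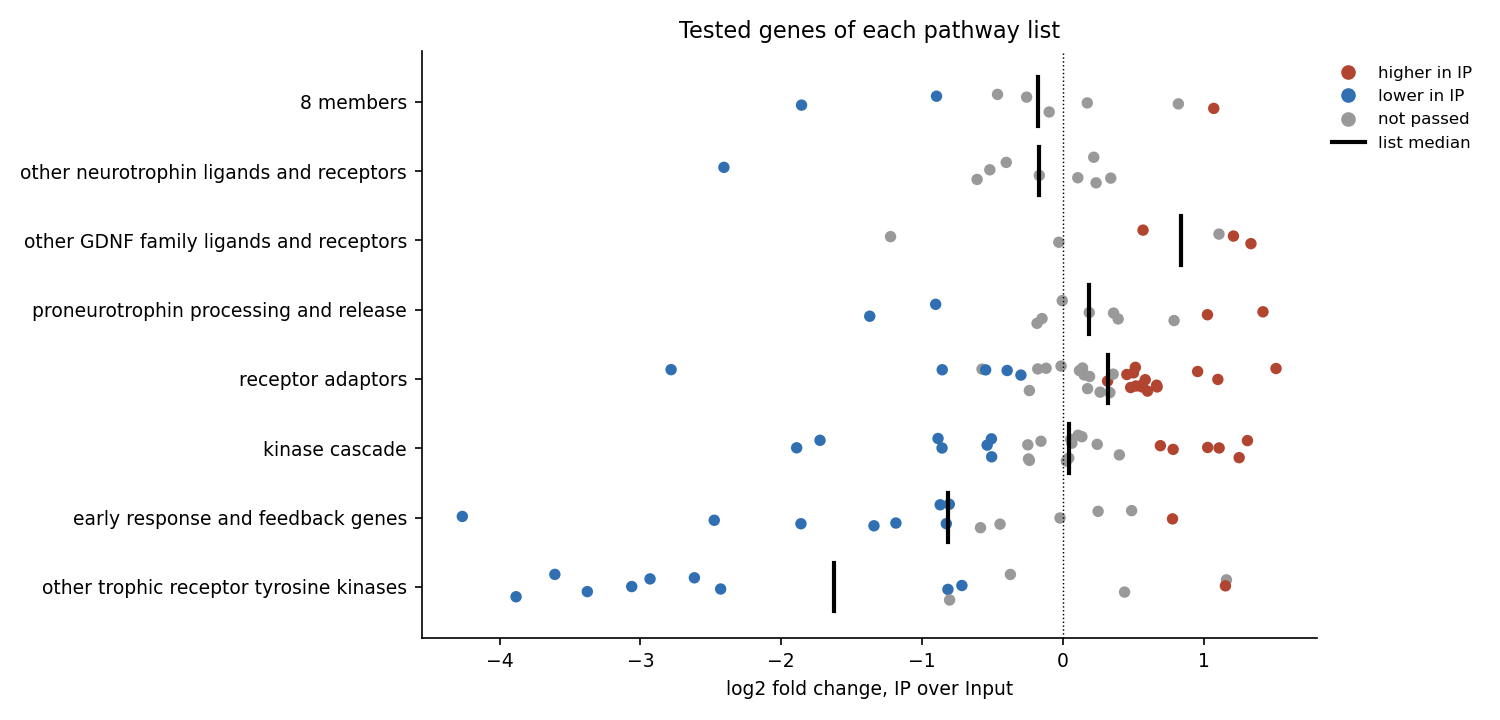
Log2 fold change of IP over Input for each tested gene of the 8 genes and of 7 other lists, in red where called higher, blue where called lower and grey where not passed, with a black bar at each list's median. The medians run from -1.62 for other trophic receptor tyrosine kinases to 0.84 for other GDNF family ligands and receptors.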

How the data were processed

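RNA sequencing counts of 3 IP and 3 Input libraries were analysed. The authors deposited unnormalized read counts by gene symbol for each library, produced with STAR 2.0.0e and HTSeq on mm10, per the submitters' processing notes. The sources used here name no annotation, strand setting or counting mode. HTSeq summary lines and unknown genes were left out. Positions and exon lengths came from GENCODE M21 (GRCm38, the assembly of mm10), and upstream sequences from RefSeq (GRCm38.p6).

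A filter on low counts (filterByExpr on the 2 groups, count 10, total 15) left 17197 genes and took out 15334. Counts were scaled by TMM and tested two-sided in R 4.3.3 by edgeR 4.0.16 (quasi-likelihood F test, robust, group as the only term, Benjamini-Hochberg adjustment over all tested genes, threshold 0.05). Changes beyond 2-fold were tested with glmTreat. SE is the log2 fold change divided by the square root of F. Correlations use log2 CPM with a prior count of 2. At these depths 3 counts correspond to 0.0688 to 0.0741 CPM, for counting error only. Code was tested on simulated data.

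The 8 genes, the lists and the tests were chosen with earlier results of these data known. Named were the 8 genes, Lhx5, Rpl10a, every tested gene of the 2 lists of other ligands and receptors (some are not reported here), of each other pathway list up to 3 called genes per direction with the highest mean CPM, and for each of the 8 the gene of highest correlation, symbols of Gm, Rik, LOC or sequence-record form left out. Marker lists of 14 cell types were read as sums and counts. Same-numbered libraries share a lane per the labels, and their deviations from group means correlated at 0.155, 0.0744 and 0.0506. Replicates differed beyond counting error (chi-square per degree of freedom 25.6 to 79.3). Alternatives were other scalings, filters, DESeq2 1.42.0, limma-voom (limma 3.58.1), thinning, a replicate block and leaving out libraries. A length scale was added after seeing the data.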

Additional observations from a re-analysis of the deposited data

How the results depend on the processing

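In all, 16 alternatives were run.
Ntrk2 and Ngfr stayed called lower in each, and Ntf3, Ntrk3, Gfra1 and Gfra2 stayed uncalled in each. Bdnf kept its sign in each and lost its call in 5, with log2 fold changes of 0.79 to 1.43 leaving out 1 library and 0.57 without both IP replicate 2 and Input replicate 3. Fewer libraries were tested in these fits, and none used the replicate block. The fit without 2 libraries left out the highest IP and the lowest Input library of Bdnf, which had to lower its difference. Ret ranged from 0.42 to 1.28 leaving out 1 library. With the replicate block Ret stood at 0.96 and was called, Bdnf at 1.11 (adjusted p = 0.000388), and 2 of the 8 genes were called higher. The block changed no other call among the 8. Leaving out 1 library, 0 to 1 of the 8 were called higher (Ret, not Bdnf, without Input replicate 1), and 0 were without both IP replicate 2 and Input replicate 3. The number of genes called over all ranged from 7779 to 9712. Ntf3, Gdnf and Nrtn have few counts and wide spread between libraries, and the part of depth in their errors was not tested. The length used moved levels per kilobase of every gene of the 8 but Ngfr, and no fold change between groups.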
